A study of Homo sapiens with 19 samples.

Results

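The genes described here are 47 genes of the mitotic spindle and of cell division, the machinery that a cell makes for mitosis. They were taken by symbol from a list and matched to the Ensembl identifiers of 3 gene count tables, which together hold 84354 identifiers. All 47 were found in every table, and all 47 passed the filter on low counts in every comparison. The list was set by what the genes do and not by a threshold on their values. It and the other gene lists below were chosen with earlier results of these data known, so they are not independent of the data.

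Mitosis is started by CDK1 bound to cyclin B, which is switched on by CDC25 phosphatases and reinforced by the PLK1 and Aurora A kinases. Kinesin motors and microtubule-binding proteins then build the spindle, kinetochores attach chromosomes to it, and the spindle checkpoint holds the anaphase-promoting complex in check until every chromosome is attached. Many of these genes have promoter elements called CHR and CCAAT boxes. Most are transcribed late in the cell cycle under the DREAM and MuvB complexes, B-MYB and FOXM1. In a growing culture their transcripts therefore follow both the share of cells near division and the output of each such cell, and in bulk RNA fewer cells in division and less RNA per dividing cell cannot be told apart.

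The human colorectal carcinoma cell lines HCT116 and WiDr were grown for 96 h with an inhibitor of a protein arginine methyltransferase or with the solvent DMSO. GSK025 (GSK3235025, 10 µM) is labelled as acting on PRMT5, which places symmetric dimethyl marks on arginine, and GSK715 (GSK3368715, 5 µM) as acting on PRMT1, which places most asymmetric ones. HCT116 was treated with DMSO, GSK025 or GSK715 and WiDr with DMSO or GSK715, with 3 libraries of poly(A)-selected short reads per group. WiDr cells with DMSO or GSK715 were also read as full-length cDNA on the Oxford Nanopore (ONT) platform, with 2 libraries per group, which makes 19 libraries in all. Both are established cell lines. Nothing states whether replicates came from separate cultures, so the p-values below measure the spread between these libraries, which may be technical.

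Because these genes are known for CHR and CCAAT elements, the promoters of 4 genes that fell with both inhibitors and in both lines are shown first. They were chosen as the 4 whose smallest fold change over the 3 short-read comparisons with DMSO was greatest among those holding TTTGAA or TTTAAA, the core letters of the CHR, on either strand. Each is the 250 bases before the transcription start in RefSeq (GRCh38.p14), written 5′ to 3′ on the gene's own strand, with those letters in capitals.
CENPE, minus strand, chr4:103198344-103198593: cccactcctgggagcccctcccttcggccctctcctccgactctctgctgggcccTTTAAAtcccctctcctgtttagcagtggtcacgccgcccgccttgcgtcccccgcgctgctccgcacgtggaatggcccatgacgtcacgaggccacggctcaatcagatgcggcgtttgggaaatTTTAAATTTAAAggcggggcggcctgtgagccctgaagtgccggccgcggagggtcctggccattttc
HMMR, plus strand, chr5:163460382-163460631: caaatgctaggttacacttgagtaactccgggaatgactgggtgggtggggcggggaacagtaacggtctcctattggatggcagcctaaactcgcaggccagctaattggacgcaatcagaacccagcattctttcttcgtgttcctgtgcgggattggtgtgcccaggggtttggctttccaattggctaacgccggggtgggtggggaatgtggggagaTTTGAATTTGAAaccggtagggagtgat
KIF14, minus strand, chr1:200620752-200621001: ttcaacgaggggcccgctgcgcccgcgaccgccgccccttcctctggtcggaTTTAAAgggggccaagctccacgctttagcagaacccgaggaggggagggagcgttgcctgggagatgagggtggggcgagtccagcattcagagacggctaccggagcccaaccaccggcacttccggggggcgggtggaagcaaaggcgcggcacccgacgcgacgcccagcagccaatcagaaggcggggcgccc
KIF18A, minus strand, chr11:28108157-28108406: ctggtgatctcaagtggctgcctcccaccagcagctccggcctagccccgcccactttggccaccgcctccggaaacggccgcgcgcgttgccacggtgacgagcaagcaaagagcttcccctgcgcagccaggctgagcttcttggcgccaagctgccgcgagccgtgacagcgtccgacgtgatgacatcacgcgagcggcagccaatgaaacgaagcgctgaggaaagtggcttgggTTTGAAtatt
The CENPE promoter held 2 TTTAAA matches in direct succession, starting 68 and 62 bases upstream of the start. The HMMR promoter had the same arrangement with TTTGAA, at 28 and 22 bases upstream, and 5 CCAAT matches (on either strand) further upstream. In KIF18A a single TTTGAA began 10 bases before the start, and in KIF14 a TTTAAA began 198 bases before it.

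Across the 300-base windows (250 before and 50 after a start) of the RefSeq table, 39 of the 47 genes had an entry, with 49 windows in all. TTTGAA on either strand was present in 32 of the 49 windows (65.3%), against 15.2% of all 35116 promoter windows. TTTAAA was present in 16 of 49 (32.7%, against 12.2% of all windows) and CCAAT in 38 of 49 (77.6%, against 34.6%). A CCAAT together with either CHR core stood in 31 of 49 windows (63.3%), against 9.27% of all windows. TTTGAA and TTTAAA differ at 1 letter and cannot match the same place, and 2 matches of different motifs overlapped in the 49 windows. These are matches of letters, and no binding was measured.

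Short-read libraries held 64.6 to 66.9 M counts per sample (M for 1e6) in HCT116 and 59.6 to 82.4 M in WiDr, and the full-length cDNA libraries 1.45 to 1.67 M. Summed markers of colorectal epithelium were 4450 to 4550 counts per 1e6 library counts (CPM) in HCT116 with DMSO and 15600 to 15900 in WiDr with DMSO. The sums, most of them KRT8, KRT18 and KRT19, were higher in the treated libraries. They were 7550 to 7940 with GSK025 and 5720 to 6120 with GSK715 in HCT116, and 22500 to 23000 in WiDr. In HCT116 with DMSO, LGALS4 (mean 0.034 CPM), VIL1 (0.12), CDH17 (0.70) and CDX1 (0.02) were near the floor, whereas CDX2 was at 11.6. CDX1 was at 0 in HCT116 with GSK715. In WiDr with DMSO, CDX2 (0.55 CPM) and CDX1 (0.13) were low, whereas LGALS4 was at 673, VIL1 at 64.8 and CDH17 at 5.14. Single markers went the other way: KRT19 fell with GSK715 in HCT116 (-0.28, log2) and LGALS4 and EPCAM fell in WiDr (-0.82 and -0.18). With GSK025, 5 of the 8 epithelial markers tested were called higher and 1 lower. Immune markers summed to 37.3 to 42.3 CPM in HCT116 with DMSO, 23.5 to 26.2 with GSK025 and 76.2 to 85.6 with GSK715, nearly all of it CD68, while PTPRC, the defining leukocyte gene, was at 0 in all 9 HCT116 libraries. In WiDr they summed to 10.7 to 13.8 CPM with DMSO and 27.5 to 32.3 with GSK715. Stromal and endothelial markers summed to 27.6 CPM or less and 3.4 CPM or less in every library. The part of these markers in the results below was not tested. CPM values below are scaled by edgeR's TMM factors, and libraries are listed in the order of their replicate numbers.

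With DMSO, the 47 genes took 0.37 to 0.38% of all counts in HCT116 and 0.473 to 0.478% in WiDr. The share was 0.306 to 0.311% with GSK025 and 0.252 to 0.256% with GSK715 in HCT116, and 0.229 to 0.234% with GSK715 in WiDr, without overlap between treated and control libraries. Per kilobase of exon, the scale on which genes can be set against each other, CDC20 led in HCT116 with DMSO at 145 CPM per kb, ahead of TPX2 (45 CPM per kb) and CCNB1 (44.9 CPM per kb). In WiDr with DMSO the order began with CDC25B (88.9 CPM per kb), TPX2 (75.9 CPM per kb) and CCNB1 (71.1 CPM per kb). CENPE was the lowest of the 47 in HCT116 (1.15 CPM per kb) and KIF14 in WiDr (3.05 CPM per kb).

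In short reads GSK715 lowered all 47 genes in WiDr, and most of them in HCT116, where GSK025 left a mixed picture. Below, WiDr without mention of cDNA stands for its short reads. In WiDr short reads all 47 passed the test as lower (edgeR's quasi-likelihood test, Benjamini-Hochberg adjusted p below 0.05 over all genes), 33 of them by at least 2-fold, and for all 47 the treated and control libraries did not overlap. How many of all genes fell by 2-fold or stood apart in this way was not counted. The counts of 2-fold falls by role below therefore have no background either. The median log2 fold change of the 47 was -1.33, against 0.05 over all 19340 genes tested, of which 32.2% were called lower and 33.6% higher. In HCT116 with GSK715, 35 of the 47 were called lower, 2 higher and 10 neither, with a median of -0.48 against -0.05 over all 19751 genes, of which 24.2% were called lower and 22.1% higher. With GSK025, 28 were called lower, 6 higher and 13 neither, with a median of -0.21 against -0.02, and 22.1% of all genes were called lower and 22.0% higher. Scaling by library totals instead of TMM moved the median of all genes to -0.21 with GSK715 in HCT116, where 2994 genes were then called higher and 6343 lower in place of 4372 and 4785, and to 0.18 in WiDr. Under it the medians of the 47 were -0.64 and -1.20, with 41 lower and 1 higher in HCT116 and 47 lower in WiDr. Both HCT116 comparisons use the same 3 DMSO libraries, so their values are given side by side and not as independent evidence. The most frequent pattern over the 3 short-read comparisons was a call of lower in all 3 (25 genes), followed by a call of lower with GSK715 in both lines but none with GSK025 (8 genes). How many of all genes showed these patterns was not counted, so the pattern counts have no background and are not read as a trait of the 47.

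**Figure D1:**
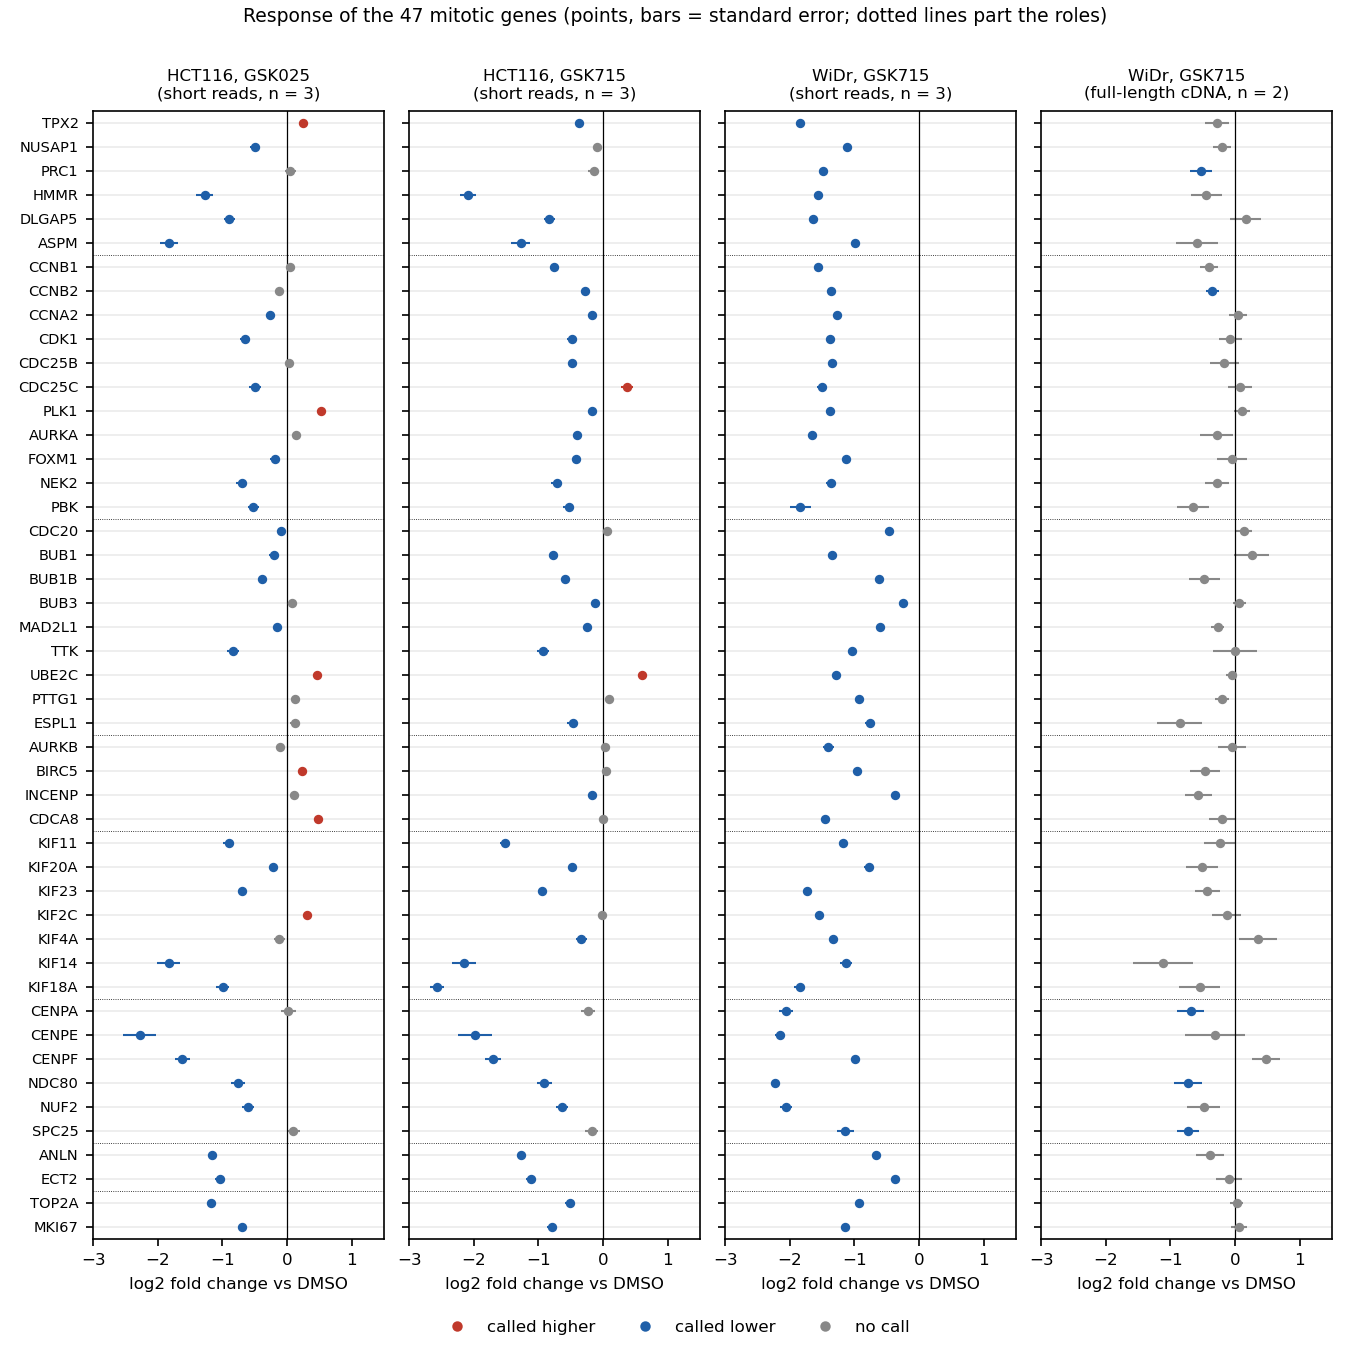
Log2 fold change against DMSO (horizontal axis) of each of the 47 genes (rows, parted by role) in 4 comparisons, with bars for the standard error. All 47 points lie below 0 in WiDr short reads; with GSK025 in HCT116, 6 genes are called higher and 28 lower, and in the full-length cDNA 5 are called lower.

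Among the 11 kinases, cyclins and regulators of mitotic entry, 10 fell and 1 rose with GSK715 in HCT116, 6 fell and 1 rose with GSK025, and all 11 fell in WiDr, each by at least 2-fold (log2 fold changes -1.84 to -1.14). For these and the other roles, 24.2% of all genes fell with GSK715 in HCT116, 22.1% with GSK025 and 32.2% in WiDr. The share rising was 22.1%, 22.0% and 33.6% in the same order, and the share falling by 2-fold was not counted. PLK1 (ENSG00000166851, chr16:23677656-23690367, GRCh38), the kinase that drives entry and later steps of mitosis, stood at 83.7, 86.2 and 89.5 CPM in HCT116 with DMSO, 128, 129 and 116 with GSK025 and 75.4, 76.6 and 78.8 with GSK715. Every GSK025 library was above every DMSO library and every GSK715 library below, so that the inhibitors moved PLK1 in opposite directions. The change was 1.44-fold up with GSK025 (log2 fold change 0.52, SE 0.051, adjusted p = 2.59e-06) and a small fall with GSK715 (log2 fold change -0.17, SE 0.051, adjusted p = 0.0156). In WiDr, PLK1 read 147, 151 and 149 CPM with DMSO and 54.2, 60.7 and 57.5 with GSK715, a 2.59-fold fall (log2 fold change -1.37, SE 0.043, adjusted p = 1.91e-09). PLK1 shares 12.5% of its exonic bases with 2 genes on the opposite strand, one of them ERN2, and with no strand setting given, their reads may be mixed in its count.

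CDC25C (ENSG00000158402, chr5:138285265-138338355), a phosphatase that activates CDK1, moved the other way from PLK1 in HCT116. It read 17.9, 16.9 and 15.9 CPM with DMSO, 11.4, 11.5 and 13.1 with GSK025 and 23.9, 20.9 and 20.9 with GSK715, with no overlap between the 3 groups. It fell with GSK025 (log2 fold change -0.50, SE 0.097, adjusted p = 0.000878) and rose with GSK715 (log2 fold change 0.38, SE 0.096, adjusted p = 0.00566), although scaling by library totals left the rise at 0.21 (adjusted p = 0.0766). In WiDr it read 34.98, 33.8 and 33.7 CPM with DMSO and 11.7, 13.3 and 11.3 with GSK715, a 2.83-fold fall (log2 fold change -1.50, SE 0.075, adjusted p = 5.16e-08). Cyclin B1 (CCNB1, ENSG00000134057, chr5:69167010-69178245), the partner of CDK1, was at 116, 114 and 114 CPM with DMSO, 112, 122 and 121 with GSK025 and 72.5, 66.04 and 65.8 with GSK715 in HCT116. The DMSO and GSK025 libraries overlapped and no change was called with GSK025 (log2 fold change 0.04, SE 0.05, adjusted p = 0.541), whereas all GSK715 libraries were lower (log2 fold change -0.75, SE 0.051, adjusted p = 8.72e-08). In WiDr CCNB1 was at 183, 185 and 177 CPM with DMSO and 61.7, 61.5 and 61.7 with GSK715 (log2 fold change -1.56, SE 0.031, adjusted p = 1.07e-10).

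The remaining entry genes fell in WiDr by similar amounts. CDK1 itself fell with GSK025 (log2 fold change -0.65), with GSK715 in HCT116 (-0.49) and in WiDr (-1.38), as did cyclin A2 (CCNA2, -0.27, -0.17 and -1.28 in the same order). NEK2, a kinase of centrosome separation (-0.70, -0.72 and -1.36), PBK, a mitotic kinase (-0.53, -0.53 and -1.84), and FOXM1, a transcription factor of this gene set (-0.19, -0.41 and -1.14), were called lower in all 3. Aurora A (AURKA), CDC25B and cyclin B2 (CCNB2) were called lower with GSK715 only among the HCT116 comparisons with DMSO, at -0.41, -0.48 and -0.28. Their GSK025 values were 0.13, 0.03 and -0.12, none of them called. AURKA fell the most of these 3 in WiDr (-1.66), before CCNB2 (-1.36) and CDC25B (-1.34). FOXM1 shares 15.9% of its exonic bases with ITFG2.

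**Figure D2:**
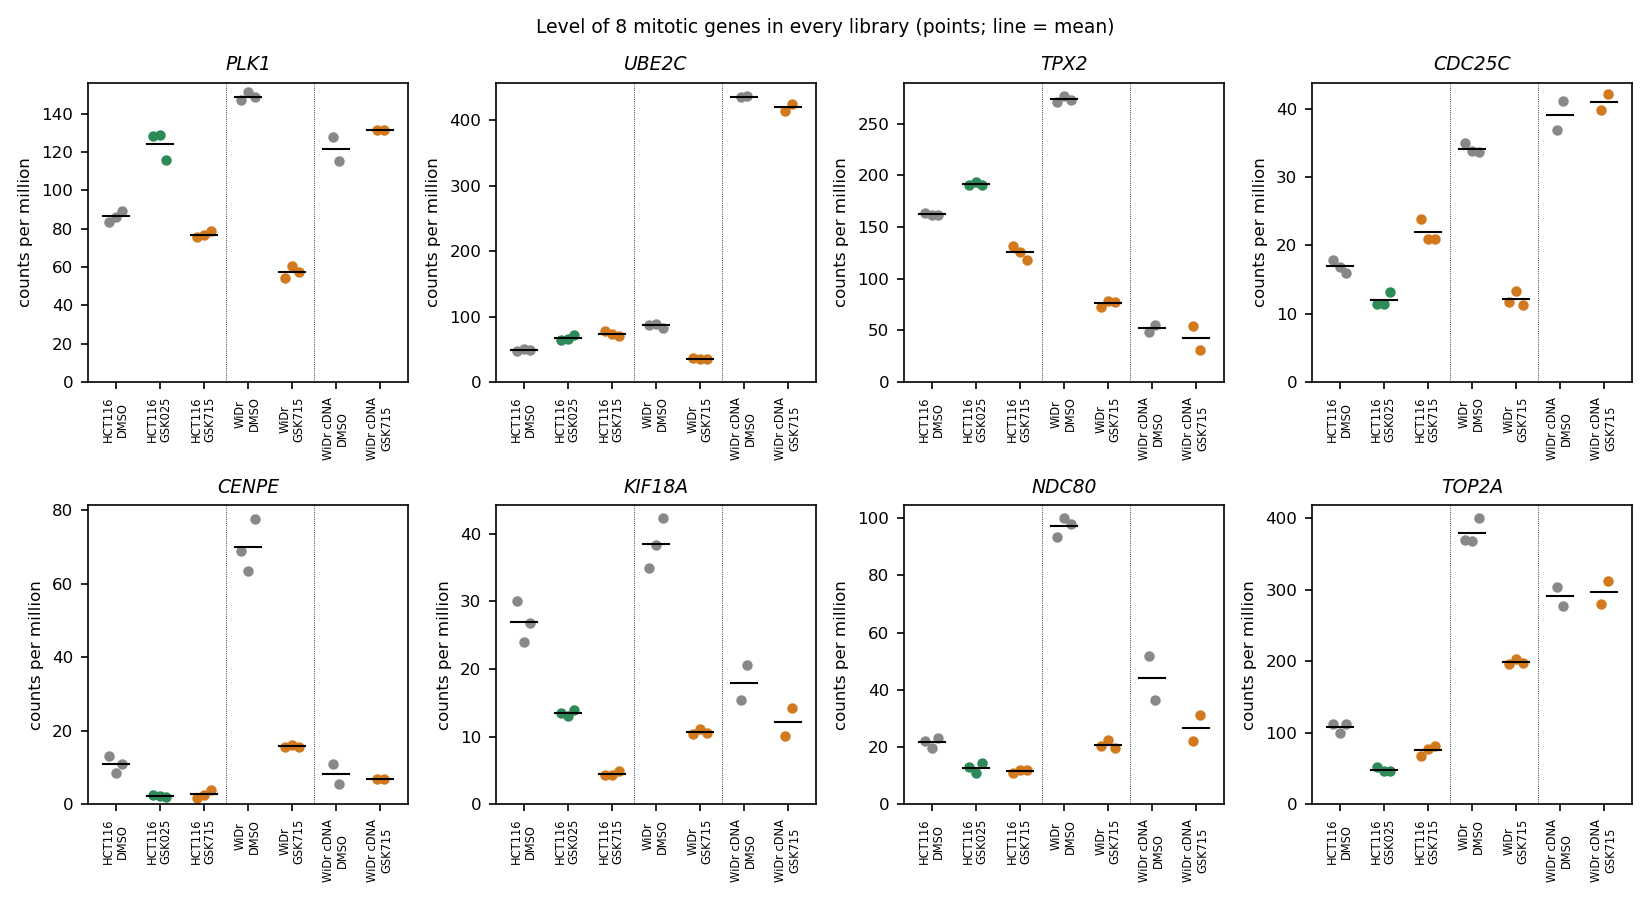
CPM (vertical axis, each panel from 0) of 8 genes in every library, one point per library and a line at the group mean, by line, treatment and read type. PLK1 and TPX2 rise with GSK025 and fall with GSK715 in HCT116, UBE2C rises with both, and all 8 are lower with GSK715 in WiDr short reads.

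UBE2C, the ubiquitin-conjugating enzyme that works with the anaphase-promoting complex, was the only gene of the 47 called higher with both inhibitors in HCT116. UBE2C (ENSG00000175063, chr20:45812576-45816957) stood at 47.4, 50.5 and 48.6 CPM with DMSO, 63.5, 65.7 and 72.4 with GSK025 and 77.3, 73.4 and 70.98 with GSK715. Every treated library was above every DMSO library, with rises of 1.38-fold with GSK025 (log2 fold change 0.46, SE 0.059, adjusted p = 2.72e-05) and 1.51-fold with GSK715 (log2 fold change 0.60, SE 0.059, adjusted p = 2.39e-06). In WiDr it read 86.96, 89.2 and 82.8 CPM with DMSO and 36.4, 34.7 and 35.2 with GSK715, a 2.43-fold fall (log2 fold change -1.28, SE 0.041, adjusted p = 2.32e-09).

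The 9 genes of the spindle checkpoint and the anaphase-promoting complex changed less in WiDr than the entry genes did, with a median of -0.76, and 3 of them fell by 2-fold or more. CDC20 (ENSG00000117399, chr1:43358955-43363203), the activator of that complex and the most abundant of the 47 per kilobase in HCT116, read 299.8, 294 and 293 CPM with DMSO, 274, 281 and 272 with GSK025 and 316, 300.4 and 305 with GSK715. Its change with GSK025 was small (log2 fold change -0.10, SE 0.035, adjusted p = 0.0333) and none was called with GSK715 (log2 fold change 0.06, SE 0.035, adjusted p = 0.227). In WiDr CDC20 went from 80.6, 82.6 and 77.5 to 58.2, 58.5 and 57.5 CPM (log2 fold change -0.47, SE 0.034, adjusted p = 9.54e-07). BUB1 (ENSG00000169679, chr2:110637698-110678114), a checkpoint kinase, read 124, 117 and 114 CPM with DMSO, 103, 95.9 and 108 with GSK025 and 67.6, 74.8 and 64.1 with GSK715. It fell little with GSK025 (log2 fold change -0.21, SE 0.063, adjusted p = 0.0157) and by 1.72-fold with GSK715 (log2 fold change -0.78, SE 0.063, adjusted p = 4.27e-07). In WiDr BUB1 went from 73.7, 73.6 and 81.6 to 28.3, 29.7 and 31.6 CPM (log2 fold change -1.35, SE 0.058, adjusted p = 1.71e-08).

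TTK, the kinase that starts checkpoint signalling, fell in all 3 comparisons (log2 fold changes -0.84 with GSK025, -0.93 with GSK715 in HCT116 and -1.04 in WiDr), and so did BUB1B (-0.39, -0.58 and -0.63) and MAD2L1 (-0.15, -0.25 and -0.61), 2 components of the checkpoint complex. BUB1B shares 10.2% of its exonic bases with BUB1B-PAK6. BUB3 changed least of the 47 in WiDr (-0.25 ± 0.03, log2 fold change ± SE) and fell by 1.09-fold with GSK715 in HCT116. Securin (PTTG1) and separase (ESPL1), the pair that controls sister chromatid separation, were not called with GSK025 (0.12 and 0.13). With GSK715 in HCT116 only ESPL1 of that pair was called lower (-0.47, against 0.09 for PTTG1), and in WiDr both were (-0.93 for PTTG1 and -0.76 for ESPL1).

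Genes of the centromere and kinetochore gave the deepest falls in WiDr, where 5 of 6 fell by at least 2-fold with a median of -2.06. CENPE (ENSG00000138778, chr4:103105806-103198409), a kinetochore kinesin, had the lowest level per kilobase in HCT116 and the steepest fall there with GSK025. It read 13.2, 8.54 and 10.8 CPM with DMSO, 2.47, 2.23 and 2.01 with GSK025 and 1.82, 2.54 and 3.87 with GSK715. Neither treated group overlapped the DMSO libraries, and the falls were 4.86-fold with GSK025 (log2 fold change -2.28, SE 0.26, adjusted p = 1.1e-05) and 3.96-fold with GSK715 (log2 fold change -1.98, SE 0.26, adjusted p = 3.03e-05). In WiDr, where its DMSO level was higher, CENPE went from 68.8, 63.4 and 77.5 to 15.6, 15.98 and 15.6 CPM (log2 fold change -2.15, SE 0.074, adjusted p = 3.68e-09). CENPF (ENSG00000117724, chr1:214603195-214664588), a large kinetochore protein, read 74.1, 64.5 and 72.00 CPM with DMSO, 22.2, 24.4 and 21.9 with GSK025 and 18.3, 19.2 and 27.2 with GSK715 in HCT116. The 2 inhibitors lowered it by 3.07-fold (log2 fold change -1.62, SE 0.12, adjusted p = 3.61e-07) and 3.26-fold (log2 fold change -1.70, SE 0.13, adjusted p = 1.84e-07). The fall was smaller in WiDr, from 139.8, 144 and 149.5 to 72.3, 69.7 and 75.7 CPM (log2 fold change -0.99, SE 0.04, adjusted p = 1.14e-08).

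NDC80, NUF2 and SPC25 encode 3 subunits of the NDC80 complex, which binds microtubules at the kinetochore. NDC80 (ENSG00000080986, chr18:2571511-2616635) had the steepest fall of the 47 in WiDr, from 93.3, 100 and 97.96 CPM with DMSO to 20.2, 22.3 and 19.6 with GSK715, which is 4.69-fold (log2 fold change -2.23, SE 0.055, adjusted p = 4.44e-10). In HCT116 it read 21.9, 19.8 and 23.2 CPM with DMSO, 13.1, 10.98 and 14.3 with GSK025 and 10.8, 11.9 and 12.01 with GSK715, and fell with both inhibitors (log2 fold changes -0.76 and -0.91). NUF2 (ENSG00000143228, chr1:163266576-163355764) went from 26.2, 25.5 and 26.3 to 5.47, 6.94 and 6.37 CPM in WiDr (log2 fold change -2.06, SE 0.096, adjusted p = 3.19e-08). Its HCT116 values were 22.6, 20.4 and 22.2 CPM with DMSO, 15.6, 13.1 and 14.1 with GSK025 and 13.9, 13.01 and 14.95 with GSK715, and it too fell with both inhibitors there (-0.61 and -0.64). SPC25 (ENSG00000152253, chr2:168834132-168913371) was not called in HCT116 (0.10 with GSK025 and -0.18 with GSK715), where it read 12.3, 12.6 and 14.1 CPM with DMSO, 13.99, 14.6 and 13.1 with GSK025 and 12.3, 11.3 and 10.9 with GSK715. In WiDr it fell from 11.1, 10.8 and 11.2 to 5.81, 4.66 and 4.52 CPM (log2 fold change -1.14, SE 0.13, adjusted p = 2.56e-05). CENPA (ENSG00000115163, chr2:26764289-26801067), the histone H3 variant that marks centromeres, showed the same split between the lines. It read 13.1, 15.1 and 12.9 CPM with DMSO, 15.4, 12.6 and 13.8 with GSK025 and 11.8, 12.8 and 10.6 with GSK715 in HCT116, with no call (0.02 and -0.23), and fell 4.16-fold in WiDr, from 20.2, 20.2 and 20.04 to 4.33, 5.66 and 4.57 CPM (log2 fold change -2.06, SE 0.11, adjusted p = 1.07e-07).

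The chromosomal passenger complex, which corrects wrong attachments and directs cytokinesis, was the group least lowered in HCT116. None of its 4 genes fell with GSK025, and 2 rose. Borealin (CDCA8, ENSG00000134690, chr1:37692418-37709719) read 39.9, 45.3 and 41.01 CPM with DMSO, 60.7, 60.8 and 54.2 with GSK025 and 43.1, 41.9 and 41.3 with GSK715. It rose 1.39-fold with GSK025 (log2 fold change 0.48, SE 0.065, adjusted p = 4.76e-05), while its GSK715 and DMSO libraries overlapped. Survivin (BIRC5, ENSG00000089685, chr17:78214186-78225636) read 96.2, 94.99 and 87.8 CPM with DMSO, 109, 111 and 110.1 with GSK025 and 103, 93.9 and 89.96 with GSK715, and rose with GSK025 alone of the 2 (log2 fold change 0.24, SE 0.055, adjusted p = 0.00285, against 0.04 with GSK715, not called). In WiDr CDCA8 fell from 65.8, 65.2 and 65.2 to 23.7, 23.7 and 24.6 CPM (log2 fold change -1.45, SE 0.043, adjusted p = 1.44e-09) and BIRC5 from 71.04, 71.6 and 68.99 to 39.1, 34.4 and 34.8 CPM (log2 fold change -0.97, SE 0.054, adjusted p = 1.23e-07). Aurora B (AURKB), the kinase of the complex, was not called in HCT116 (-0.11 with GSK025 and 0.04 with GSK715) and fell in WiDr (-1.40). The scaffold INCENP was lowered only slightly, by GSK715 in HCT116 (-0.18) and in WiDr (-0.37).

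Of the 7 kinesin motors, 6 fell with GSK715 in HCT116, 5 fell and 1 rose with GSK025, and all 7 fell in WiDr. KIF18A (ENSG00000121621, chr11:28020620-28108308), a motor that limits chromosome oscillation, had the steepest fall of the 47 with GSK715 in HCT116. It read 30.1, 23.9 and 26.8 CPM with DMSO, 13.5, 13.1 and 13.98 with GSK025 and 4.28, 4.36 and 4.97 with GSK715, so that the 3 groups stood clear of each other. The falls were 1.99-fold with GSK025 (log2 fold change -0.996, SE 0.1, adjusted p = 4.93e-06) and 5.94-fold with GSK715 (log2 fold change -2.57, SE 0.11, adjusted p = 2.23e-09). In WiDr KIF18A went from 34.9, 38.3 and 42.3 to 10.4, 11.1 and 10.6 CPM (log2 fold change -1.85, SE 0.081, adjusted p = 2.15e-08). KIF14 (ENSG00000118193, chr1:200551497-200620734), a motor of cytokinesis, read 21.4, 22.4 and 22.9 CPM with DMSO, 7.18, 4.85 and 6.74 with GSK025 and 3.72, 6.25 and 5.02 with GSK715 in HCT116. It fell by 3.55-fold (log2 fold change -1.83, SE 0.18, adjusted p = 3.3e-06) and 4.45-fold (log2 fold change -2.15, SE 0.19, adjusted p = 7.48e-07). In WiDr, from a like DMSO level, it went from 20.6, 20.97 and 24.9 to 10.5, 9.3 and 10.6 CPM (log2 fold change -1.13, SE 0.098, adjusted p = 3.28e-06).

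KIF11 (ENSG00000138160, chr10:92593286-92655395), the motor that pushes spindle poles apart, read 34.3, 35.7 and 37.1 CPM with DMSO, 19.3, 18.1 and 19.9 with GSK025 and 11.6, 12.2 and 13.6 with GSK715 in HCT116. Again the 3 groups did not overlap (log2 fold change -0.90, SE 0.081, adjusted p = 1.37e-06 with GSK025 and log2 fold change -1.52, SE 0.083, adjusted p = 1.58e-08 with GSK715). In WiDr it went from 84.6, 78.4 and 91.5 to 38.1, 34.6 and 39.7 CPM (log2 fold change -1.18, SE 0.066, adjusted p = 1.18e-07). KIF2C (ENSG00000142945, chr1:44739818-44767767), which disassembles microtubules rather than walking on them, was the kinesin that rose. It read 104, 102 and 99.8 CPM with DMSO, 122, 125 and 131 with GSK025 and 107, 98.5 and 97.2 with GSK715, up with GSK025 (log2 fold change 0.30, SE 0.048, adjusted p = 0.000174) and overlapping with GSK715. In WiDr it fell from 116, 131 and 121 to 40.6, 42.4 and 42.4 CPM (log2 fold change -1.55, SE 0.048, adjusted p = 1.81e-09). KIF23 and KIF20A, motors of the central spindle, fell in all 3 comparisons (-0.69, -0.95 and -1.74 for KIF23, and -0.21, -0.48 and -0.78 for KIF20A). KIF4A (ENSG00000090889, chrX:70290090-70420832), a chromosome-bound motor, read 40.2, 36.3 and 38.2 CPM with DMSO, 37.6, 31.1 and 36.97 with GSK025 and 29.6, 33.1 and 28.1 with GSK715. It fell with GSK715 only (-0.34, against -0.12 with GSK025, not called), and in WiDr from 93.1, 87.9 and 88.8 to 34.5, 37.3 and 35.7 CPM (log2 fold change -1.33, SE 0.042, adjusted p = 2.24e-09).

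Among the 6 microtubule-associated proteins of the spindle, TPX2, HMMR and ASPM gave 3 different patterns. TPX2 (ENSG00000088325, chr20:31739271-31801805), which nucleates spindle microtubules and activates Aurora A, read 164, 161 and 161 CPM with DMSO, 191, 194 and 190.2 with GSK025 and 132, 126 and 118 with GSK715. Like PLK1 it rose with GSK025 (log2 fold change 0.24, SE 0.043, adjusted p = 0.000447) and fell with GSK715 (log2 fold change -0.37, SE 0.043, adjusted p = 1.19e-05). In WiDr it went from 271, 277 and 273 to 72.5, 77.97 and 77.6 CPM, a 3.6-fold fall (log2 fold change -1.85, SE 0.036, adjusted p = 1.02e-10). HMMR (ENSG00000072571, chr5:163460203-163491945), a spindle and hyaluronan-binding protein, read 37.3, 36.3 and 41.5 CPM with DMSO, 18.9, 15.02 and 13.6 with GSK025 and 7.76, 9.11 and 10.1 with GSK715, and fell with both, more with GSK715 (log2 fold change -1.28, SE 0.13, adjusted p = 3.19e-06 with GSK025 and log2 fold change -2.09, SE 0.13, adjusted p = 4.88e-08 with GSK715). ASPM (ENSG00000066279, chr1:197084128-197146694), which focuses spindle poles, read 26.3, 21.4 and 23.4 CPM with DMSO, 7.49, 6.56 and 6.05 with GSK025 and 9.17, 8.41 and 11.8 with GSK715, and fell more with GSK025 (log2 fold change -1.82, SE 0.14, adjusted p = 3.79e-07 with GSK025 and log2 fold change -1.28, SE 0.14, adjusted p = 5.97e-06 with GSK715). In WiDr HMMR went from 44.3, 45.98 and 45.8 to 16.3, 14.2 and 15.4 CPM (log2 fold change -1.57, SE 0.065, adjusted p = 1.46e-08). ASPM went from 83.3, 85.2 and 90.3 to 46.3, 41.3 and 42.4 CPM there (log2 fold change -0.99, SE 0.05, adjusted p = 5.74e-08).

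DLGAP5 (ENSG00000126787, chr14:55148112-55191678), a stabiliser of spindle fibres, read 57.5, 50.8 and 61.5 CPM with DMSO, 30.2, 31.5 and 29.98 with GSK025 and 27.6, 33.8 and 34.05 with GSK715, with falls of like size (-0.89 and -0.83), and went from 42.2, 41.6 and 41.1 to 13.2, 13.2 and 13.7 CPM in WiDr (log2 fold change -1.64, SE 0.056, adjusted p = 3.63e-09). NUSAP1 (ENSG00000137804, chr15:41332694-41381050), a microtubule bundler, read 102, 92.03 and 94.5 CPM with DMSO, 64.7, 63.5 and 75.4 with GSK025 and 88.8, 86.3 and 96.2 with GSK715. It fell with GSK025 (log2 fold change -0.50, SE 0.069, adjusted p = 5.5e-05), was not called with GSK715 in HCT116 (-0.09) and fell in WiDr (-1.12), from 162, 154 and 152 to 72.5, 71.7 and 71.6 CPM. PRC1 (ENSG00000198901, chr15:90966038-90995629), which crosslinks the central spindle, was not called in HCT116, with 101, 94.5 and 89.8 CPM with DMSO, 105, 106 and 85.3 with GSK025 and 88.8, 90.4 and 79.3 with GSK715. In WiDr it fell from 162, 166 and 152 to 51.9, 61.99 and 56.1 CPM (log2 fold change -1.49, SE 0.062, adjusted p = 1.34e-08). NUSAP1 and PRC1 share 62.2% and 58.4% of their exonic bases with other genes, so reads of those genes may be in their counts.

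Both genes of the cleavage furrow fell more in HCT116 than in WiDr. ECT2 (ENSG00000114346, chr3:172750682-172821474), the exchange factor that activates RhoA for furrowing, read 103, 101 and 101 CPM with DMSO, 52.8, 50.05 and 46.2 with GSK025 and 43.4, 45.8 and 51.7 with GSK715 in HCT116. It fell with both inhibitors by about the same amount (log2 fold change -1.04, SE 0.068, adjusted p = 9.3e-08 with GSK025 and log2 fold change -1.12, SE 0.068, adjusted p = 3.53e-08 with GSK715). In WiDr it went from 161, 146 and 159 to 121, 120 and 119 CPM, a 1.3-fold fall (log2 fold change -0.37, SE 0.04, adjusted p = 1.81e-05). Anillin (ANLN), which organises the contractile ring, fell by 2.23-fold and 2.41-fold in HCT116 and by 1.58-fold in WiDr. Of the 2 genes of mitotic chromosome structure, topoisomerase II alpha (TOP2A, ENSG00000131747, chr17:40388516-40417950) read 112, 99.6 and 112 CPM with DMSO, 51.4, 45.98 and 46.1 with GSK025 and 67.8, 77.4 and 80.9 with GSK715. Its fall with GSK025 (log2 fold change -1.17, SE 0.074, adjusted p = 7.38e-08) was deeper than with GSK715 (log2 fold change -0.52, SE 0.073, adjusted p = 6.1e-05), and in WiDr it went from 369, 369 and 401 to 197, 204 and 198 CPM (log2 fold change -0.93, SE 0.038, adjusted p = 1.18e-08). MKI67, the Ki-67 antigen used to score proliferation, fell in all 3 (-0.69, -0.79 and -1.14).

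Set directly against each other in HCT116, GSK715 left 21 of the 47 genes lower and 5 higher than GSK025, with 21 not called and a median log2 difference of -0.20. Of all genes, 22.5% were lower and 21.8% higher in that comparison. The agents have different targets and were given at different doses, so the difference is between these 2 treatments as given. The largest decreases were in KIF18A (log2 fold change -1.57, SE 0.11, adjusted p = 1.37e-07), HMMR (log2 fold change -0.81, SE 0.13, adjusted p = 0.000196), CCNB1 (log2 fold change -0.80, SE 0.051, adjusted p = 6.63e-08), PLK1 (log2 fold change -0.69, SE 0.051, adjusted p = 2.36e-07), KIF11 (log2 fold change -0.61, SE 0.083, adjusted p = 4.81e-05) and TPX2 (log2 fold change -0.61, SE 0.043, adjusted p = 1.7e-07). Among these are the pole-separating motor and the cyclin and kinase of mitotic entry. The 5 that were higher with GSK715 were CDC25C (log2 fold change 0.87, SE 0.097, adjusted p = 9.27e-06), TOP2A (log2 fold change 0.66, SE 0.074, adjusted p = 1.01e-05), ASPM (log2 fold change 0.55, SE 0.14, adjusted p = 0.00627), NUSAP1 (log2 fold change 0.41, SE 0.069, adjusted p = 3e-04) and CDC20 (log2 fold change 0.15, SE 0.035, adjusted p = 0.0027). The CDC20 difference was 0.06 (adjusted p = 0.138) when libraries were scaled by their totals, a scaling under which 3474 of all genes were called higher and 5406 lower in place of 4302 and 4444. For CENPE, CENPF, ECT2, ANLN and UBE2C no difference between the inhibitors was called (0.30 ± 0.26, -0.08 ± 0.12, -0.08 ± 0.068, -0.11 ± 0.051 and 0.14 ± 0.058, log2 difference ± SE), which does not show that they act alike on these genes.

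Whether GSK715 acted differently in the 2 lines was tested as an interaction in 1 fit over the 12 short-read libraries of DMSO and GSK715. The response was more negative in WiDr for 36 of the 47 genes, less negative for 6, and not called as different for 5. The median difference (WiDr minus HCT116) was -0.88, against 0.12 over all 21791 genes tested, of which 23.5% had a more negative and 23.2% a more positive response in WiDr. Scaling by library totals moved the median of all genes to 0.47 and that of the 47 to -0.52, with 29 then more negative and 10 more positive, and with 7321 of all genes more positive and 3203 more negative. Taking out the trend with exonic length, described below, gave medians of 0.26 for all genes and -0.68 for the 47. Of the 47, 35 were then more negative and 7 more positive, and of all genes 4487 and 5813. Lines differ in genotype and in their libraries alike, and which of these goes with the difference cannot be told apart.

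The most negative differences were those of UBE2C (log2 difference -1.95, SE 0.063, adjusted p = 4.31e-11) and CDC25C (log2 difference -1.95, SE 0.12, adjusted p = 1.75e-08), which rose in HCT116 and fell in WiDr, and of CENPA (log2 difference -1.90, SE 0.17, adjusted p = 8.03e-07) and KIF2C (log2 difference -1.61, SE 0.071, adjusted p = 8.4e-10), which were not called in HCT116 and fell in WiDr. UBE2C and CDC25C were the only genes of the 47 called in opposite directions in the lines. The 6 genes with a smaller fall in WiDr than in HCT116 were KIF14 (log2 difference 0.95, SE 0.22, adjusted p = 0.00245), ECT2 (log2 difference 0.68, SE 0.083, adjusted p = 1.45e-05), KIF18A (log2 difference 0.65, SE 0.15, adjusted p = 0.00227), CENPF (log2 difference 0.64, SE 0.16, adjusted p = 0.0051), ANLN (0.54) and HMMR (0.45). Both genes of the cleavage furrow are among them. No difference was called for CENPE (-0.24 ± 0.29), KIF11 (0.27 ± 0.11), ASPM (0.21 ± 0.15), TTK (-0.18 ± 0.13) and BUB1B (-0.12 ± 0.059, log2 difference ± SE).

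**Figure D3:**
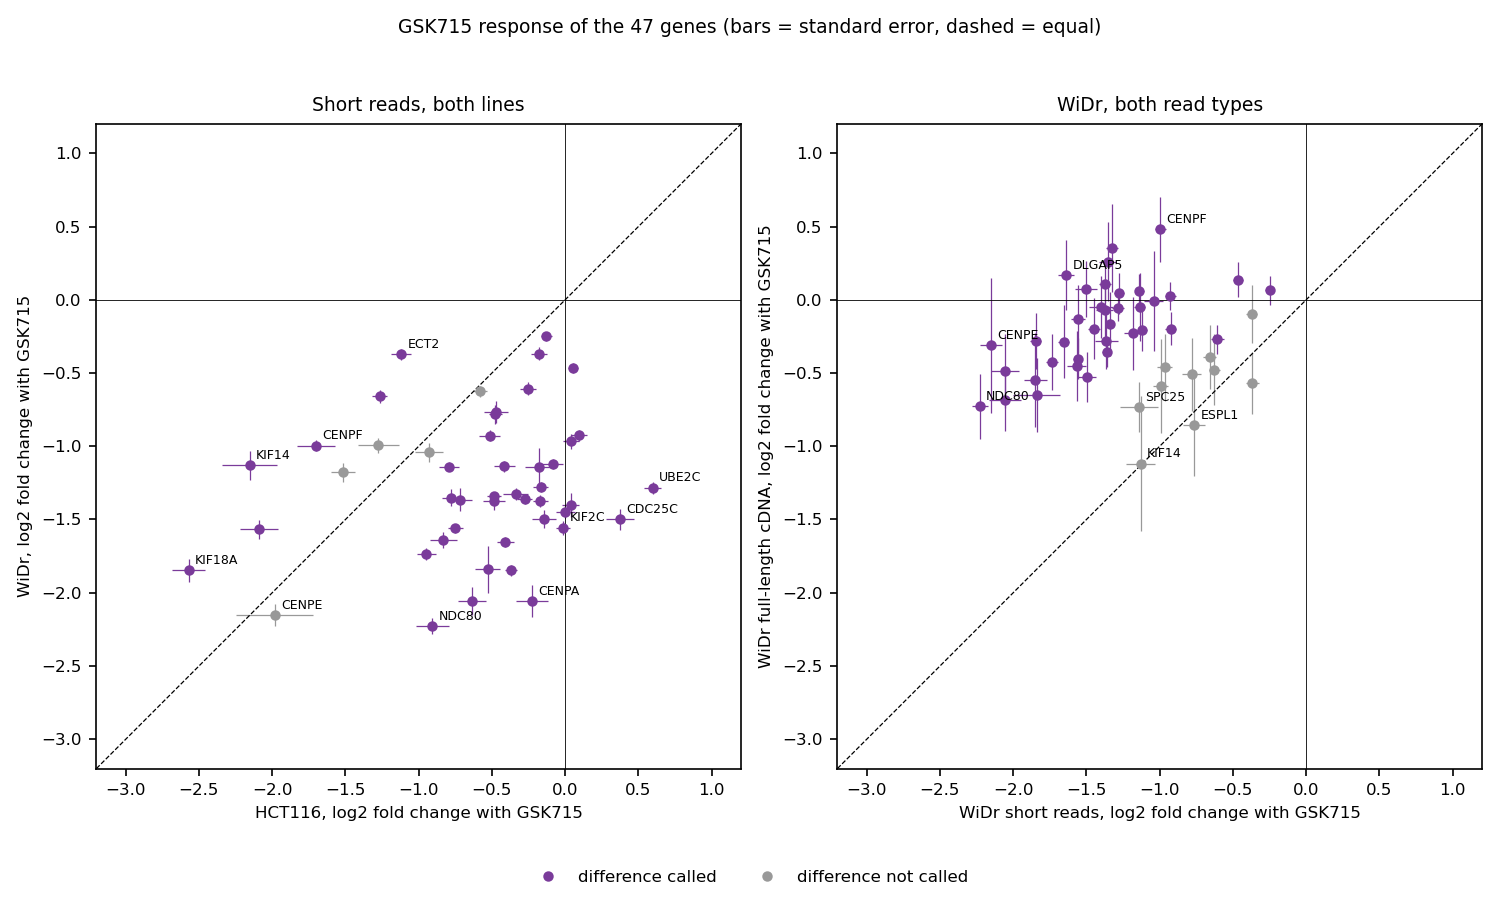
Left, log2 fold change with GSK715 in WiDr against that in HCT116 for the 47 genes; right, that in WiDr full-length cDNA against WiDr short reads, with standard errors and a dashed line of equal response. Most points lie below the line on the left (36 differences called more negative in WiDr) and above it on the right (37 called less negative in the cDNA).

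The full-length cDNA of WiDr showed much smaller changes in the same genes. Of the 47, 5 were called lower and none higher, where 4.51% of all 15877 genes tested were called lower and 4.29% higher, and the median was -0.27 against 0.00 over all genes. Scaling by library totals called 592 genes higher and 991 lower in place of 681 and 716. At an unadjusted p below 0.05 with TMM, 13 of the 47 were lower and 1 higher. DESeq2 called none of the 47 (4 lower and 0 higher at an unadjusted p below 0.05). How many of all genes passed that unadjusted level was not counted, so these unadjusted counts have no background. The 47 genes took 0.344 to 0.351% of counts with DMSO and 0.294 to 0.307% with GSK715, again without overlap.

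The 5 genes called in cDNA were 2 subunits of the NDC80 complex, CENPA, PRC1 and CCNB2. SPC25 was at 68.9 and 85.03 CPM with DMSO and 40.4 and 51.7 with GSK715 (log2 fold change -0.73, SE 0.17, adjusted p = 0.00219), from estimated counts of 112 and 124 in the DMSO and 60 and 75.8 in the GSK715 libraries. NDC80 was at 51.7 and 36.3 CPM with DMSO and 22.2 and 31.3 with GSK715 (log2 fold change -0.73, SE 0.22, adjusted p = 0.0278). Without the first DMSO library its log2 fold change was -0.45 (edgeR, adjusted p = 0.478). CENPA was at 48.6 and 40.5 CPM with DMSO and 27.6 and 27.9 with GSK715 (log2 fold change -0.69, SE 0.21, adjusted p = 0.0278). In each of the 3 both treated libraries lay below both controls, which was not counted over all genes. PRC1 was at 64.6 and 63.1 CPM with DMSO and 41.8 and 46.96 with GSK715 (log2 fold change -0.53, SE 0.17, adjusted p = 0.0398), and CCNB2 at 255 and 248 CPM with DMSO and 201 and 192 with GSK715 (log2 fold change -0.36, SE 0.1, adjusted p = 0.0192). Leaving out any of the 4 cDNA libraries left 1 or 2 of the 47 called, and with no filter on low counts none was called.

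The difference between read types was itself tested, and 37 of the 47 genes had a less negative response in cDNA, none a more negative one (also none at an unadjusted p below 0.05 or by DESeq2), with a median difference of 1.21 against -0.04 over all genes. Of all 24055 genes in that fit, 11.2% had a more positive and 8.69% a more negative response in cDNA. Library totals as the scale gave 34 of the 47, with 1802 of all genes more positive and 3076 more negative in place of 2697 and 2090. The greatest differences were in CENPE (log2 difference 1.89, SE 0.43, adjusted p = 0.00692), DLGAP5 (log2 difference 1.86, SE 0.2, adjusted p = 3.09e-05), KIF4A (log2 difference 1.74, SE 0.2, adjusted p = 5.78e-05) and BUB1 (log2 difference 1.66, SE 0.24, adjusted p = 0.000337). CENPE read 11.1 and 5.49 CPM with DMSO and 6.73 and 6.81 with GSK715 in cDNA, from estimated counts of 17.5 and 8 in the DMSO and 10 and 10.01 in the GSK715 libraries. Its difference had an adjusted p of 0.0528 without GSK715 replicate 2 of the cDNA. In cDNA, DLGAP5 read 28.3 and 23.3 CPM with DMSO and 23.6 and 34.7 with GSK715. KIF4A read 15.4 and 13.03 CPM with DMSO and 16.8 and 19.7 with GSK715, and BUB1 17.8 and 21.9 CPM with DMSO and 19.5 and 27.9 with GSK715. In none of these 4 genes was a change called in cDNA, whereas all 4 had fallen at least 2-fold in short reads. The libraries of the 2 read types differ in platform and in depth, and nothing states that they came from the same cultures, so their parts in the difference cannot be told apart.

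In HCT116 the signed log2 fold change tended to be lower in genes with more exonic bases, among the 47 genes as among all genes. The 11 genes with 6000 or more exonic bases had a median log2 fold change of -1.16 with GSK025 and -0.95 with GSK715, and the 13 genes under 3000 bases 0.02 and -0.17. Over all genes with at least 5 CPM these medians were -0.13 and -0.14 for the long and 0.24 and 0.21 for the short genes. Spearman's rho between fold change and length over the 47 genes was -0.466 with GSK025 and -0.568 with GSK715 in HCT116, and 0.305 in WiDr. Over all genes it was -0.301, -0.292 and -0.0631 in the same order, and these correlations are across genes of the same libraries, given as a description. For the difference between the lines (WiDr minus HCT116, log2) rho was 0.683 over the 47 genes and 0.141 over all genes. The median difference was -0.24 in the 11 long and -1.18 in the 13 short genes, against 0.02 and -0.33 over all genes. The part of length in the differences between the lines was not tested.

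CENPE, CENPF, ASPM, KIF14 and MKI67 are among the long genes, and UBE2C, at the short end, rose. With GSK025, 9 of the 11 long genes were called lower, and with GSK715 in HCT116 all 11. BUB3 (8.3 kb) and ESPL1 (8.89 kb) are also long and went against the trend with GSK025. Their means were 214 and 35.6 CPM with DMSO and 226 and 39.0 with GSK025, neither called. KIF18A and HMMR, of middle length, fell as far as the long ones with GSK715 in HCT116. When the trend with length over all genes was taken out of each library, the 47 gave 8 higher and 29 lower with GSK025, 2 higher and 38 lower with GSK715 in HCT116, and 47 lower in WiDr. Under that setting the UBE2C rises were 0.24 and 0.36 with GSK025 and GSK715, BUB3 and ESPL1 were called higher with GSK025 (0.28 and 0.35), BUB1 and MAD2L1 lost their calls with GSK025 (-0.12 and -0.08), and BUB3 with GSK715 turned to 0.08 with no call (adjusted p = 0.108). The part of RNA quality or library preparation in the length trend was not tested.

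**Figure D4:**
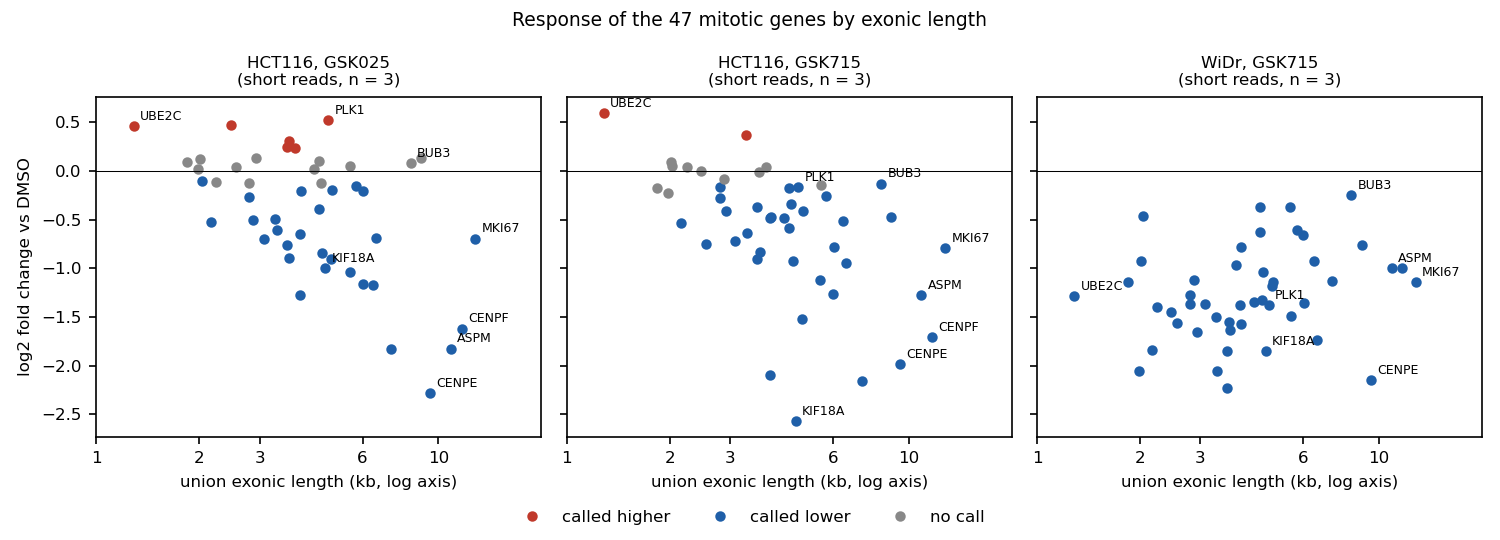
Log2 fold change against DMSO (vertical axis) of the 47 genes by union exonic length in kilobases (horizontal, log axis), in the 3 short-read comparisons. In both HCT116 panels the long genes CENPE, CENPF and ASPM lie low (rho -0.466 and -0.568), whereas BUB3, also long, lies near 0. In WiDr both short and long genes lie below 0 (rho 0.305).

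Other division genes, 98 from lists that do not overlap the 47, were counted in the same comparisons. In WiDr 84 of the 98 were called lower and 4 higher (median -0.80), against 32.2% and 33.6% of all genes. In HCT116, 53 were lower and 18 higher with GSK715 (median -0.23), against 24.2% and 22.1% of all genes, and 48 lower and 22 higher with GSK025 (median -0.16), against 22.1% and 22.0%. In cDNA 6 of the 96 tested were lower, near the 4.51% of all genes, and none was higher, against 4.29%. The lowest called of their lists there were CIT (-1.20), CDCA2 (-0.93), ZWINT (-0.86) and CDCA5 (-0.45). Of 15 condensin and cohesin genes, which compact and hold chromosomes, all 15 fell in WiDr, led by NCAPG (log2 fold change -2.01, SE 0.056, adjusted p = 9.03e-10), and SMC3 led the falls in HCT116 (-1.42 with GSK025 and -1.25 with GSK715). CDCA5, which protects cohesin, rose with GSK025 (0.55), and NCAPH2 rose with GSK715 in HCT116 (0.42). Of 22 further kinetochore and centromere genes, 18 fell in WiDr and NSL1 rose (0.54). SKA1, which couples kinetochores to microtubules, fell most (log2 fold change -2.46, SE 0.12, adjusted p = 3.8e-08), while in HCT116 SGO2 led the falls with GSK715 (-1.51). ZWINT led the rises with GSK025 (0.76) and PMF1 those with GSK715 (0.77).

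For the counts that follow, 32.2% of all genes fell and 33.6% rose in WiDr, 24.2% and 22.1% with GSK715 in HCT116, and 22.1% and 22.0% with GSK025. Of 18 further kinesins and spindle proteins, 17 fell and 1 rose in WiDr, and 13 fell and 2 rose with GSK715 in HCT116. With GSK025, 7 of the 18 fell and 6 rose (median -0.01). KIF20B was lowest in all 3 comparisons (-1.57 with GSK025, -1.75 with GSK715 in HCT116 and -1.71 in WiDr). NUMA1, a spindle-pole protein, rose with GSK025 (0.58) and slightly in WiDr (0.10), and NDE1 rose with GSK715 in HCT116 (0.60). The 17 further genes of the anaphase-promoting complex and its inhibitors had medians of -0.04 with GSK025 and -0.06 with GSK715 in HCT116. Of these, 6 fell and 4 rose with GSK025, 7 fell and 5 rose with GSK715 in HCT116, and 11 fell and 1 rose in WiDr. Within that list UBE2S, the enzyme that extends the chains UBE2C begins, fell by 4.58-fold in WiDr (log2 fold change -2.19, SE 0.039, adjusted p = 5.52e-11), while ANAPC2 rose there (0.70), MAD2L1BP with GSK025 (0.43) and FZR1 with GSK715 in HCT116 (0.59). CDC16 (-0.43 with GSK025) and CDC27 (-0.67 with GSK715) fell most of it in HCT116. Of 15 entry and exit kinases and phosphatases, 14 fell in WiDr, CDCA2 most (-1.69), and 8 with each inhibitor in HCT116, where PLK4 (-1.06 with GSK025) and BORA (-1.38 with GSK715) were lowest, CKS1B rose with GSK025 (0.41) and CDC25A with GSK715 (0.52). Of 11 cytokinesis genes, 9 fell in WiDr, CEP55 most (-1.69), and DEPDC1 was lowest in HCT116 (-1.17 with GSK025 and -2.04 with GSK715). SEPTIN9 rose with GSK025 (0.68) and CHMP4B with GSK715 (0.39 in HCT116 and 0.08 in WiDr).

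Genes of S phase moved in both directions. Of 20 such genes, 11 rose and 5 fell with GSK715 in WiDr (median 0.19), 8 rose and 7 fell with it in HCT116 (median 0.03), and 12 rose and 4 fell with GSK025 (median 0.28). Over all genes, 33.6% rose and 32.2% fell in WiDr, 22.1% and 24.2% with GSK715 in HCT116 and 22.0% and 22.1% with GSK025. The counts of falls among these 20 are not read as a result about them. CDT1, which licenses replication origins, rose most with GSK715 in both lines (log2 fold change 0.84, SE 0.051, adjusted p = 3.91e-08 in HCT116 and log2 fold change 1.60, SE 0.053, adjusted p = 2.99e-09 in WiDr), and CCNE1, cyclin E1, rose most with GSK025 (0.87). The falls were led by the ribonucleotide reductase subunit RRM2 in WiDr (log2 fold change -1.39, SE 0.051, adjusted p = 5.88e-09) and by CLSPN in HCT116 (-0.74 with GSK025 and -0.92 with GSK715).

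Regulators of the division programme, 21 genes of the DREAM, B-MYB, E2F and RB families and their partners, fell in 15 cases and rose in 5 in WiDr, where 32.2% of all genes fell and 33.6% rose. E2F7 fell most (log2 fold change -2.58, SE 0.11, adjusted p = 2.16e-08) and the largest rise at a mean of 5 CPM or more was that of RBBP4, a histone-binding subunit of DREAM (0.72). In HCT116, 7 fell and 6 rose with GSK025, where CDKN1A, the p21 inhibitor of cyclin-dependent kinases, rose 3.39-fold (log2 fold change 1.76, SE 0.047, adjusted p = 1.66e-10) and RBL2 fell most (-1.17). CDKN1A also rose with GSK715 in HCT116 (0.47) and fell with it in WiDr (log2 fold change -1.89, SE 0.032, adjusted p = 4.54e-11). With GSK715 in HCT116, 7 fell and 8 rose, RB1 most among the falls (-1.73) and E2F1 among the rises (0.54). In HCT116, 22.1% of all genes fell and 22.0% rose with GSK025 and 24.2% and 22.1% with GSK715, and the counts of these 21 are not read as a result about them. In cDNA 4.51% of all genes were called lower and 4.29% higher. Of the 18 regulators tested there only CDKN1A was called, and it fell (log2 fold change -1.24, SE 0.22, adjusted p = 9.1e-05). This count is not read as a result about the regulators.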

How the data were processed

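Short-read gene counts were deposited by the authors as whole raw counts per Ensembl gene for HCT116 and for WiDr. The ONT table holds estimated counts per gene, deposited by the authors without normalization, of which 15.1% were not whole and were rounded. The submitters' processing notes name cutadapt, HISAT2, StringTie, minimap2, Salmon and DESeq2 and the build GRCh38, with no versions. The annotation release and strand setting are not given in the sources used here. Columns named NC were taken as DMSO, the group left over. ONT rows with no Ensembl identifier (8.49 to 9.81% of counts) were left out.

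Genes passed edgeR's filterByExpr (minimum count 10, minimum total 15). Counts were scaled by TMM and tested with edgeR 4.0.16 in R 4.3.3 (quasi-likelihood test, Benjamini-Hochberg adjusted p below 0.05 over all genes). Standard errors (SE) are the log2 fold change divided by the square root of the F statistic. HCT116 groups shared 1 fit, and differences between lines or read types were interaction terms. Exonic length, gene position and overlap are those of GENCODE 29 on GRCh38. The length trend was a spline with 4 degrees of freedom over genes with at least 5 CPM. Genes were given values in every library if among the 6 largest called increases or decreases of a comparison (4 for the cDNA and the interactions) at a mean of at least 5 CPM. The other lists name the called gene with the largest rise and fall at the same minimum, and CCNB2 in cDNA and the genes with no called difference were named after their values were seen. A result that this rule would name is not reported here. The members and lists were chosen with earlier results of these data known. Scripts were tested on simulated counts with few changed genes and a spread unlike that of the data. That test checks the code only and does not bear on the calls given here. DESeq2 1.42.0, other scalings, filters and left-out libraries were alternatives. Replicates of a group differed by more than sampling noise.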

Additional observations from a re-analysis of the deposited data

Results flagged for a closer look

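The response to GSK715 differed between WiDr and HCT116, by the interaction test, for 42 of the 47 genes. The differences (WiDr minus HCT116, log2) were -1.95 for UBE2C, -1.95 for CDC25C, -1.90 for CENPA and -1.61 for KIF2C, and 0.95 for KIF14, 0.68 for ECT2, 0.65 for KIF18A and 0.64 for CENPF.

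Within WiDr, the response read from full-length cDNA differed from that in short reads, by the interaction test, for 37 of the 47 genes. The differences (cDNA minus short reads, log2) were 1.89 for CENPE, 1.86 for DLGAP5, 1.74 for KIF4A and 1.66 for BUB1.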

How the results depend on the processing

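The alternatives gave 1054 recomputed values of 74 results. Of the 74, 53 were log2 fold changes or differences of genes named for large called changes, and none of these changed direction. That choice made a reversal unlikely, and the other results were counts, which have no direction. BUB3 with GSK715 in HCT116, not among the 74, went from -0.13 (log2) to 0.08 under the length trend (adjusted p = 0.108). Scaling by library totals left 1 of the 47 genes higher with GSK715 in HCT116 (CDC25C no longer called) and gave 10 with a more positive response in WiDr than in HCT116. The cDNA calls rested on the settings: with no count filter 0 of the 47 were called lower and 251 genes in all, with DESeq2 0 and 277, and with each library left out in turn 1 to 2 and 464 to 1058, where a lone remaining library is taken to vary like the other group. SPC25, NDC80, CENPA and PRC1 each lost the call in cDNA under at least 4 of these alternatives. With the replicate block, 6 and 26 of the 47 were higher and lower with GSK025, 2 and 36 with GSK715 in HCT116, 0 and 47 in WiDr and 0 and 6 in cDNA. Same-numbered libraries correlated at -0.101 to 0.074 in HCT116, 0.014 to 0.079 in WiDr and 0.00 in cDNA, so the numbers were taken only as names. At 1.45 to 1.67 M counts the cDNA gave CENPE 8 to 17.5 counts per library, and a missing call there does not show that a gene did not change.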
